A study of Homo sapiens with 8 samples.

Results

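The ZFP36 family and other proteins that bind AU-rich elements were followed at the mRNA level in HEK293F cells, an established human embryonic kidney line, after the level of the RNA helicase MOV10 had been raised or lowered. The set holds 5 genes of 23368 symbols in the count table, ZFP36, ZFP36L1, ZFP36L2, ELAVL1 and AUH. The set was chosen by the level of ZFP36L1, which stood above control with both gain and loss of MOV10, so these differences of ZFP36L1 are described without a test. The rule of choice does not name values of the other 4 genes, but the members were chosen with earlier results of these data known. Their p-values are therefore not independent of the data that led to the set. All 5 genes passed the filter on low counts and are described below.

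The data were read counts per gene in 8 libraries. In 3 libraries MOV10 was overexpressed by a single transfection of myc-tagged MOV10, in 2 libraries it was knocked down with siRNA, and 3 control libraries came from cells given an irrelevant siRNA. The siRNAs were delivered 3 times, 24 h apart. The labels name no empty-plasmid cells among these samples, so overexpression and control differ in the agent delivered and its schedule as well as in MOV10, and the effects cannot be told apart. Whether replicates were separate cultures is not stated in the labels, so a p-value reflects the scatter among these libraries alone, and that scatter may be technical. Library totals ran from 12737889 to 32826936 reads. MOV10 itself stood at 2450 to 2970 CPM (the read count relative to library size, with TMM scaling between libraries) in overexpression libraries, 50.6 to 55.5 CPM in knockdown libraries and 76.4 to 91.2 CPM in control libraries, so every library followed its label. All 6 markers listed for HEK293 cells (VIM, KRT8, KRT18, PAX2, NEFL and NEFM) stood at 7.23 CPM or more in every library. The blood cell marker HBB had no read, PTPRC reached at most 0.0785 CPM and the endothelial marker PECAM1 0.366 CPM. Of the fibroblast markers COL1A1 reached 62.8 CPM and COL1A2 0.0441 CPM at most.

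AU-rich elements are stretches of the 3′ untranslated region (3′ UTR) that set how long an mRNA lasts and how well it is translated. They are built around the letters AUUUA and are common in mRNAs of growth factors, cytokines and early-response genes. ZFP36 (tristetraprolin), ZFP36L1 and ZFP36L2 are CCCH zinc finger proteins that bind these elements and recruit the CCR4-NOT deadenylase, which shortens the poly(A) tail and leads to decay. ELAVL1 (HuR) binds overlapping sequences and usually stabilises its targets. AUH was first purified as an AU-binding protein, and it is also the mitochondrial methylglutaconyl-CoA hydratase of leucine breakdown.

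The preferred site of the ZFP36 proteins is the nonamer UUAUUUAUU, and mRNAs of this family are known to carry such sites themselves. The longest 3′ UTR annotated in GENCODE 29 held 1 nonamer in each of ZFP36, ZFP36L1, ZFP36L2 and ELAVL1. The nonamer was absent from the 3′ UTR of AUH, as was the shorter core UAUUUAU. The nonamer occurred in 9.5% of the 13716 tested genes with an annotated 3′ UTR. The sites are shown because they are the sequence through which these proteins can bind the mRNAs of their own set. The nonamer is in capitals, 5′ to 3′, on the transcript strand.
ZFP36 (chromosome 19, base 507 of a 713-base 3′ UTR): uaugacgacuUUAUUUAUUcuaauaugauu
ZFP36L1 (chromosome 14, base 2393 of 2828): aacuguuggaUUAUUUAUUuuagaaauucc
ZFP36L2 (chromosome 2, base 853 of 1917): acuauuuaacUUAUUUAUUaucuugugaaa
ELAVL1 (chromosome 19, base 1637 of 4904): auuuauguauUUAUUUAUUgaagugugaaa

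The first comparison asked how these mRNAs differed between cells with abundant MOV10 and control cells. ZFP36L1 and ZFP36 stood higher with overexpression, AUH was slightly higher, ELAVL1 was slightly lower and ZFP36L2 overlapped control. ZFP36L1 had 92.1, 96.8 and 88.9 CPM in the overexpression libraries, against 49.5, 47.2 and 47.4 CPM in the control libraries. The lowest overexpression library lay well above the highest control library. The means were 92.6 ± 3.97 CPM with overexpression and 48.0 ± 1.25 CPM in control (SD, n = 3 each), a 1.93-fold difference or 0.95 ± 0.05 on the log2 scale (SE). No p is given because this difference chose the set. In bulk RNA, more cells with the mRNA and more mRNA per cell cannot be told apart.

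ZFP36 had 28.0, 29.8 and 25.9 CPM in the overexpression libraries, against 18.5, 15.01 and 17.6 CPM in the control libraries. Here too the groups did not overlap, with 263 to 672 reads of ZFP36 per library. Groups of 2 or 3 libraries can separate by chance, and the share of all genes that did so was not counted. Lack of overlap, here and below, therefore only describes the values. ZFP36 rose 1.64-fold (log2 0.72 ± 0.09, SE, adjusted p = 1.1e-06; edgeR quasi-likelihood test, Benjamini-Hochberg over 15254 genes, as for all adjusted p-values below unless another fit is named). ZFP36L2 had 97.3, 105.0 and 107.0 CPM in the overexpression libraries and 104.2, 104.6 and 97.8 CPM in the control libraries. The ranges of ZFP36L2 were nearly the same, and its log2 fold change of 0.01 ± 0.05 was not called (adjusted p = 0.909).

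ELAVL1, the stabilising binder, had 238.2, 239.9 and 231.4 CPM in the overexpression libraries, against 265.8, 273.2 and 261.3 CPM in the control libraries. ELAVL1 fell (log2 fold change -0.17 ± 0.04, adjusted p = 0.00287), and the highest overexpression library lay below the lowest control library. A gene on the opposite strand overlaps ELAVL1 exons in GENCODE 29, and the strand setting of the counting is not stated in the labels, so reads of both may not be separated. AUH had 16.9, 18.2 and 19.1 CPM in the overexpression libraries, against 15.6, 15.5 and 13.8 CPM in the control libraries. Its rise of 0.26 ± 0.09 (log2, SE) had an adjusted p of 0.0183. The call of AUH was lost without control replicate 3 (0.20 ± 0.09, adjusted p = 0.0901).

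These calls have to be read against how many genes changed. With overexpression 49.2% of the 15254 genes were called at an adjusted p under 0.05, 25.2% as higher and 24.1% as lower. By library totals 60.1% of called genes were higher, against 51.1% with TMM. Apart from ZFP36L1, 2 of 4 members were higher and 1 lower, too few genes to set apart from this background. The median absolute log2 fold change over all genes was 0.20, a size that AUH passes narrowly and ELAVL1 does not reach.

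**Figure D1:**
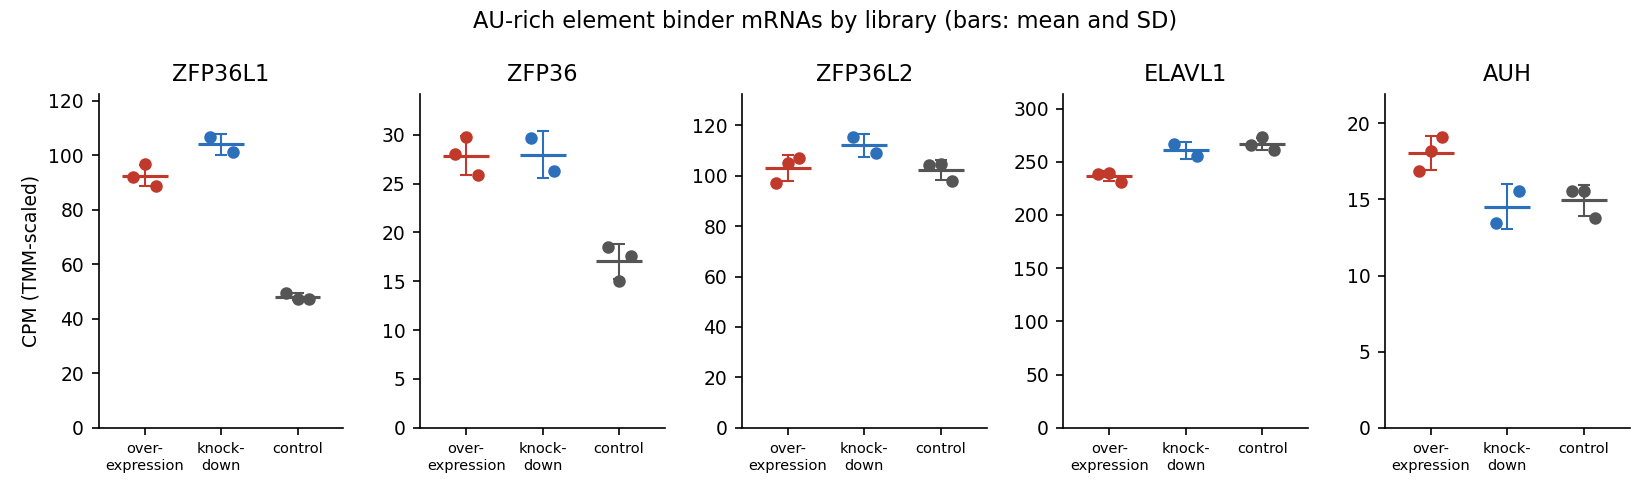
Levels of the 5 mRNAs in CPM on TMM-scaled library sizes. Each point is a library, lines and bars give the mean and SD of overexpression (n = 3), knockdown (n = 2) and control (n = 3), and each axis starts at 0. ZFP36L1 and ZFP36 are higher than every control library in all 5 libraries with altered MOV10, while ZFP36L2 overlaps control with overexpression and ELAVL1 and AUH overlap it with knockdown.

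The second comparison asked the same of cells in which MOV10 had been reduced. ZFP36L1 and ZFP36 again stood above control, and no call was made for the other 3 genes. The control libraries are those of the first comparison, so both sets of differences share them. ZFP36L1 had 106.7 and 101.4 CPM in the knockdown libraries, against 47.2 to 49.5 CPM in the control libraries. The mean of 104.0 ± 3.73 CPM (SD, n = 2) was 2.17-fold the control mean, a log2 difference of 1.11 ± 0.06 (SE), which like the first is given as a description.

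ZFP36 had 29.7 and 26.3 CPM in the knockdown libraries, against 15.01 to 18.5 CPM in the control libraries. It rose 1.65-fold (log2 0.72 ± 0.09, SE, adjusted p = 3.93e-06), and both knockdown libraries lay above every control library. ZFP36 was called higher in both comparisons, as were 7.3% of the genes tested. ZFP36L2 had 115.3 and 108.8 CPM with knockdown, against 97.8 to 104.6 CPM in control. Both knockdown libraries exceeded the controls, but the difference of 0.13 ± 0.06 on the log2 scale was not called (adjusted p = 0.0775). It was called when only the libraries of both groups entered the fit (0.13, adjusted p = 0.0142) and without overexpression replicate 3 (0.13, adjusted p = 0.0213).

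ELAVL1 had 266.5 and 255.3 CPM with knockdown, overlapping the 261.3 to 273.2 CPM of control (log2 fold change -0.03 ± 0.05, adjusted p = 0.645). AUH had 13.5 and 15.6 CPM with knockdown, also overlapping the 13.8 to 15.6 CPM of control (-0.06 ± 0.10, adjusted p = 0.632). With knockdown 39% of the genes tested were called, 19.9% upwards and 19.1% downwards. ZFP36 was thus the 1 called here of the 4 members tested. Over all genes the numbers of calls depended on knockdown replicate 2, the deepest library. Without it 1577 genes were higher and 1466 lower, against 3036 and 2907 with it, and that fit takes the spread of the single knockdown library left from the other libraries. By library totals 39.5% of called genes were higher, against 51.1% with TMM.

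**Figure D2:**
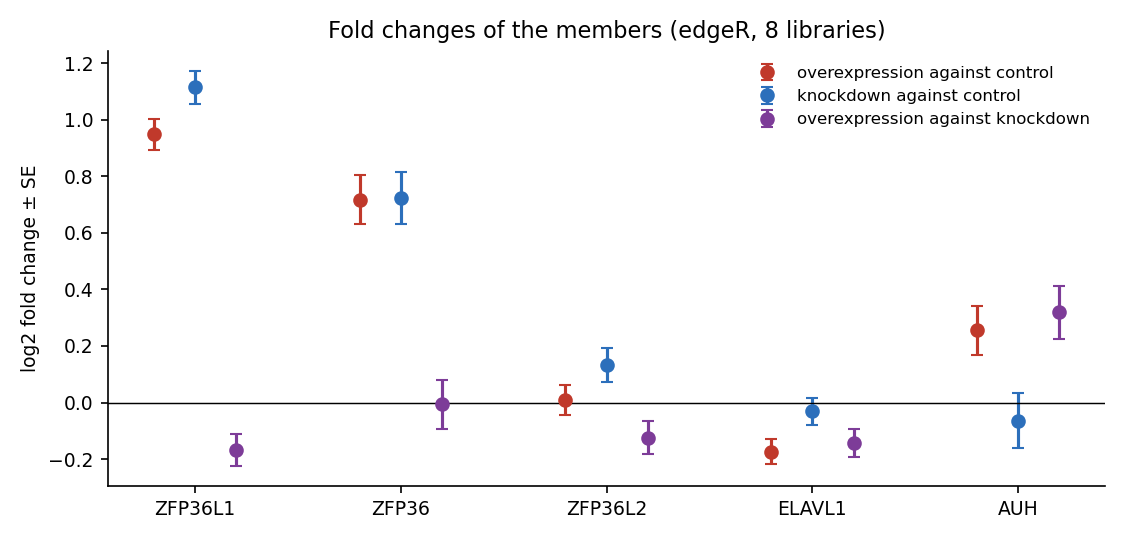
Log2 fold changes of the members with their standard errors, from a single edgeR fit of 8 libraries, for overexpression against control, knockdown against control and overexpression against knockdown. ZFP36L1 and ZFP36 lie between 0.72 and 1.11 in both comparisons with control, and the direct differences between treatments lie between -0.17 and 0.32.

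The third comparison set overexpression directly against knockdown. These groups too differ in the agent delivered and its schedule as well as in MOV10, and the effects cannot be told apart. ZFP36L1 had 88.9 to 96.8 CPM with overexpression and 101.4 and 106.7 CPM with knockdown, without overlap. The log2 difference was -0.17 ± 0.06 (SE), or -0.08 when libraries were scaled by their totals, and it is given without a test because the same libraries chose the set. For ZFP36 the libraries of both treatments overlapped (25.9 to 29.8 CPM against 26.3 and 29.7 CPM), and the difference was -0.01 ± 0.09 (adjusted p = 0.958).

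ZFP36L2 differed by -0.12 ± 0.06 between overexpression and knockdown (adjusted p = 0.0741), which passed the threshold without overexpression replicate 3 (-0.15, adjusted p = 0.0124). ELAVL1 was lower with overexpression than with knockdown by 0.14 on the log2 scale (-0.14 ± 0.05, adjusted p = 0.0182), with no overlap of libraries. That call was lost by library totals (-0.06, adjusted p = 0.327), with only the libraries compared (-0.14, adjusted p = 0.0561) and without knockdown replicate 2 (-0.11, adjusted p = 0.189). AUH was higher with overexpression than with knockdown by 0.32 ± 0.09 (adjusted p = 0.00633), at 16.9 to 19.1 CPM against 13.5 and 15.6 CPM. Without knockdown replicate 2 AUH stood at 0.20 (adjusted p = 0.184). In this contrast 57.4% of genes were called, 29.3% as higher and 28.1% as lower, and with library totals the higher genes made up 65.5% of those called, against 51.0% with TMM.

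Levels were compared between genes per kilobase of annotated exon. In control cells ELAVL1 was the most abundant member at 38.4 ± 0.86 CPM per kb, followed by ZFP36L2 at 27.7 ± 1.04 CPM per kb (SD, n = 3). ZFP36L1 at 9.31 ± 0.24 and ZFP36 at 8.48 ± 0.90 CPM per kb had overlapping ranges, although ZFP36L1 was the higher of both in each control library, and AUH was lowest at 6.62 ± 0.46 CPM per kb. Per kilobase of coding sequence the control means of ZFP36L1 and ZFP36 lay far apart, at 47.4 ± 1.23 and 17.1 ± 1.82 CPM per kb. With overexpression ZFP36L1 and ZFP36 reached 17.9 ± 0.77 and 13.9 ± 0.98 CPM per kb, and with knockdown 20.2 ± 0.72 and 13.9 ± 1.21 CPM per kb. They were then ordered without overlap of libraries, and both stayed below ZFP36L2 at 27.9 ± 1.39 CPM per kb with overexpression and 30.3 ± 1.25 CPM per kb with knockdown.

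The makeup of the family differed between groups. Summed over ZFP36, ZFP36L1 and ZFP36L2, the family stood at 58.1 to 62.0 CPM per kb of exon with overexpression and 62.1 to 66.7 with knockdown, against 44.4 to 47.0 in control. ZFP36L1 made up 29.2% to 30.7% of this sum with overexpression and 31.0% to 31.6% with knockdown, against 20.4% to 20.7% in control. The share of ZFP36L2 was 45.3% to 49.0% with overexpression and 46.8% to 47.4% with knockdown, against 59.6% to 63.0% in control. These shares depend on the length used. Per kilobase of coding sequence ZFP36L1 made up 47.2% to 49.2% with overexpression and 49.4% to 50.05% with knockdown, against 35.2% to 35.9% in control. On that scale ZFP36L1 stood above ZFP36L2 in every library with altered MOV10 and below it in every control library. ZFP36L1 drew the set together, so its larger share repeats the difference that chose it.

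**Figure D3:**
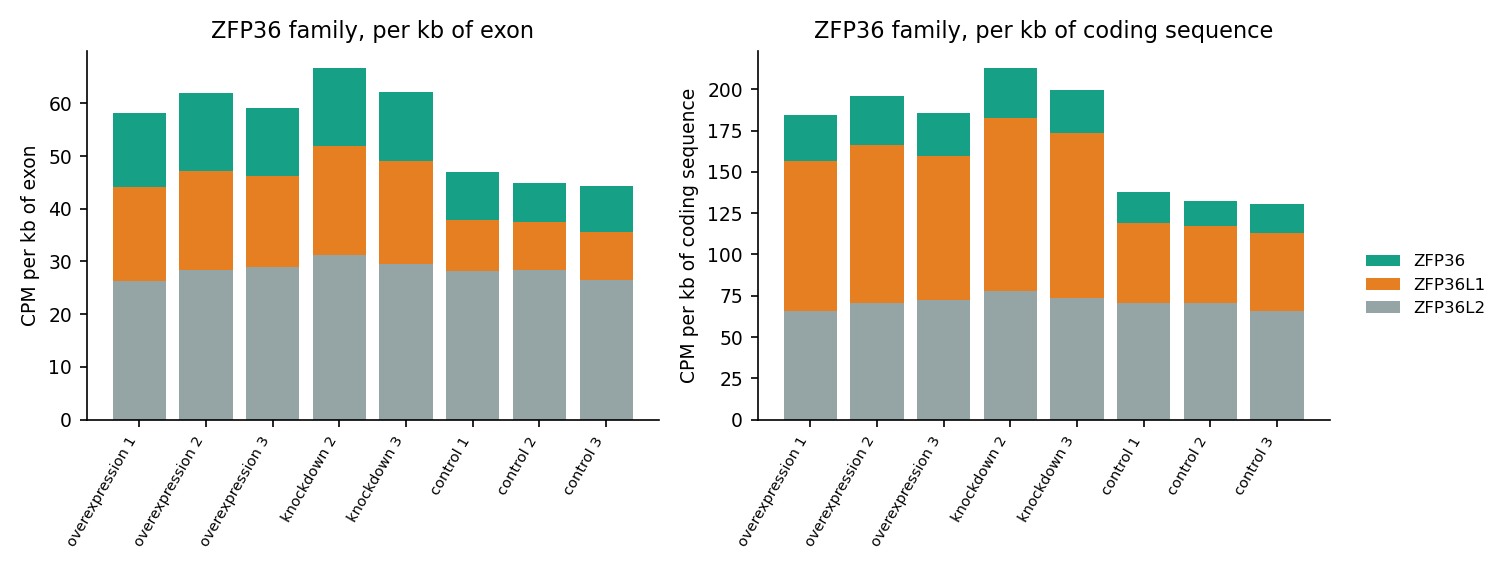
Summed level of the 3 ZFP36 family mRNAs in each library, in CPM per kilobase of exon (left) or of coding sequence (right), stacked by gene. The 3 control libraries sit between 44.4 and 47.0 per kb of exon and the 5 libraries with altered MOV10 between 58.1 and 66.7, with a ZFP36L2 layer of 26.3 to 31.2 in all 8.

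ZFP36L1 and ZFP36 were the members that moved together, so the promoters listed for them in RefSeq (GRCh38.p14, a later build than the hg19 of the counts) were searched. The words were the cyclic AMP response element TGACGTCA, which reads the same on both strands, and the GC box GGGCGG, also as CCGCCC on the other strand. The windows run from 250 bases before a gene's start to 50 after it. Of all 35116 promoters listed, 1.8% hold the first word and 45.0% the second. ZFP36L1 has a pair of annotated starts, of which the downstream one holds TGACGTCA 52 bases before the start and the upstream one holds neither word. The ZFP36 promoter holds 3 GC boxes, and TGACGTCA is not in this window. The promoter listed for AUH, which overlapped control with knockdown, holds 4 GC boxes and no TGACGTCA. No promoter was listed for ZFP36L2 or ELAVL1, so these members could not be searched. Matches are in capitals.
ZFP36L1 (chr14:68793367-68793666, minus strand): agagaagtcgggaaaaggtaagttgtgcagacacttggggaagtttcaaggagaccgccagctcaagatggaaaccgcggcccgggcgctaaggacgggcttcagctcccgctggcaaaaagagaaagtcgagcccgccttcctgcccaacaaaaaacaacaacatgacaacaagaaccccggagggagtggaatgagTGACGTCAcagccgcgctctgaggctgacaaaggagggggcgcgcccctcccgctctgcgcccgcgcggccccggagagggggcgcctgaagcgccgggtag
ZFP36 (chr19:39406597-39406896, plus strand): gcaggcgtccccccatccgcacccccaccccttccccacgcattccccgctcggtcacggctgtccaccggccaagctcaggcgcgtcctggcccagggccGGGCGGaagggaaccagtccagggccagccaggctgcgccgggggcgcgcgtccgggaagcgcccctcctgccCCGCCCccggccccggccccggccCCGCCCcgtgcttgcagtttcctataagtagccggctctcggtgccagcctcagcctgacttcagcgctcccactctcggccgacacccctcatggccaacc

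The genes whose pattern over the 8 libraries was most like that of ZFP36L1, by Pearson's r of log2 CPM among 11141 genes whose log2 CPM averaged 3 or more, were C1GALT1C1 (r = 0.991), PDIA5, B4GALNT3 and PLK3 (r = 0.990 each) and COL2A1 (r = 0.988). C1GALT1C1 encodes a chaperone of O-glycan synthesis, PDIA5 a protein disulfide isomerase, B4GALNT3 a glycosyltransferase, PLK3 a polo-like kinase and COL2A1 the type II collagen chain. The libraries fall into 3 groups, so these correlations mainly restate the group means. Among them COL2A1 stood at 0.85 ± 0.05 with overexpression and 0.96 ± 0.06 with knockdown (log2 against control, SE).

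Other binders of AU-rich elements, listed together with related RNA decay factors such as ZC3H12A, were called in both directions. Other genes are best read against the shares called over the whole table, 25.2% higher and 24.1% lower with overexpression, and 19.9% higher and 19.1% lower with knockdown. Of 13 genes tested from this list, 4 rose and 5 fell with overexpression (median log2 fold change -0.03, against 0.01 over all genes tested). With knockdown 3 rose and 2 fell (median 0.08, against -0.001 over all genes). KHSRP, a decay-promoting KH-domain protein, fell in both comparisons, by 0.40 with overexpression (-0.40 ± 0.04, adjusted p = 3.88e-07) and by 0.15 with knockdown (-0.15 ± 0.05, adjusted p = 0.0176). ZC3H12A, an endonuclease of inflammatory mRNAs, rose in both, by 0.78 ± 0.11 (adjusted p = 4.81e-06) and 0.37 ± 0.12 (adjusted p = 0.017), from a control level of 6.42 CPM. ELAVL2, a neuronal relative of ELAVL1, rose by 0.49 ± 0.07 with overexpression (adjusted p = 1.44e-05) and fell by 0.52 with knockdown (-0.52 ± 0.09, adjusted p = 7.3e-05). RBM38, which binds the CDKN1A mRNA, fell with overexpression (-0.54 ± 0.06, adjusted p = 3.35e-07) and stood at 0.07 ± 0.06 with knockdown (adjusted p = 0.391).

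The decay machinery that ZFP36 proteins recruit was called in both directions, as were genes at large (25.2% higher and 24.1% lower with overexpression, 19.9% and 19.1% with knockdown). Of 14 genes of the CCR4-NOT complex and its adaptors, 2 rose and 4 fell with overexpression (median -0.01), and 6 rose and 3 fell with knockdown (median 0.06). TOB1, an antiproliferative adaptor of the complex, rose by 0.61 ± 0.05 with overexpression (adjusted p = 7.19e-09) and 0.51 ± 0.05 with knockdown (adjusted p = 3.47e-07). Its relative TOB2 and the ubiquitin ligase gene CNOT4 rose with knockdown, by 0.48 ± 0.06 (adjusted p = 4.98e-06) and 0.42 ± 0.06 (adjusted p = 1.21e-05), and the deadenylase gene CNOT8 fell there (-0.58 ± 0.06, adjusted p = 2.64e-07). These 3 genes were not called with overexpression, at -0.01 ± 0.06, 0.03 ± 0.05 and 0.002 ± 0.05 for TOB2, CNOT4 and CNOT8.

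ZFP36 proteins are held inactive when MAPKAPK2, the kinase downstream of p38, or AKT phosphorylates them and 14-3-3 proteins bind. The list around this axis also holds phosphatase genes, so its 18 members do not all work towards this inactive state. With overexpression 12 of them fell, a phosphatase gene included, and 6 were not called (median -0.20), where 24.1% of all genes tested were lower. By library totals 10 of them were called lower and 1 higher (median -0.16). With knockdown 4 rose and 4 fell (median 0.07), where 19.9% of all genes were higher and 19.1% lower. MAPKAPK2 fell by 0.21 with overexpression (-0.21 ± 0.06, adjusted p = 0.00325), and it was named for its role after its value had been seen. The 14-3-3 genes YWHAB and YWHAQ fell with overexpression (-0.36 ± 0.05, adjusted p = 2.21e-06, and -0.33 ± 0.04, adjusted p = 3.56e-06). YWHAE and YWHAG fell there too (-0.25 ± 0.04 and -0.23 ± 0.04), and none of these was called with knockdown. YWHAH and YWHAZ were not called with overexpression (0.01 ± 0.05 and -0.05 ± 0.05). With knockdown they rose (0.28 ± 0.06, adjusted p = 0.0005, and 0.21 ± 0.06, adjusted p = 0.00748). MAP2K6, a kinase upstream of p38, fell with knockdown (-0.81 ± 0.10, adjusted p = 2.05e-06) and with overexpression (-0.27 ± 0.08, adjusted p = 0.0115). SFN, a further 14-3-3 gene at 4.06 CPM in control, fell with knockdown (-1.40 ± 0.21, adjusted p = 2.29e-05) and with overexpression (-0.54 ± 0.17, adjusted p = 0.0126).

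More textbook AU-rich mRNAs rose than fell in both comparisons. This list was drawn up by hand with earlier results of these data known, so its counts only describe the genes on it. Of 36 tested, 20 rose and 4 fell with overexpression (median 0.29), and 20 rose and 5 fell with knockdown (median 0.36). Across all genes the higher and lower shares were 25.2% and 24.1% with overexpression, and 19.9% and 19.1% with knockdown. Of the 36 with an annotated 3′ UTR, 18 hold the nonamer. KLF10, an early-response transcription factor, rose by 1.25 ± 0.06 with overexpression (adjusted p = 2.37e-12) and 0.98 ± 0.06 with knockdown (adjusted p = 4.93e-10), and the cell-cycle inhibitor CDKN1A by 0.83 ± 0.06 (adjusted p = 9.85e-10) and 1.16 ± 0.06 (adjusted p = 3.72e-11). FOSB and EGR1, immediate early transcription factors, fell with overexpression (-0.93 ± 0.09, adjusted p = 6.81e-08, and -0.91 ± 0.07, adjusted p = 3.58e-09). With knockdown FOSB rose by 1.40 ± 0.08 (adjusted p = 7.94e-11) and EGR1 by 0.94 ± 0.07 (adjusted p = 4.15e-09). Transcription and decay cannot be told apart from mRNA levels.

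**Figure D4:**
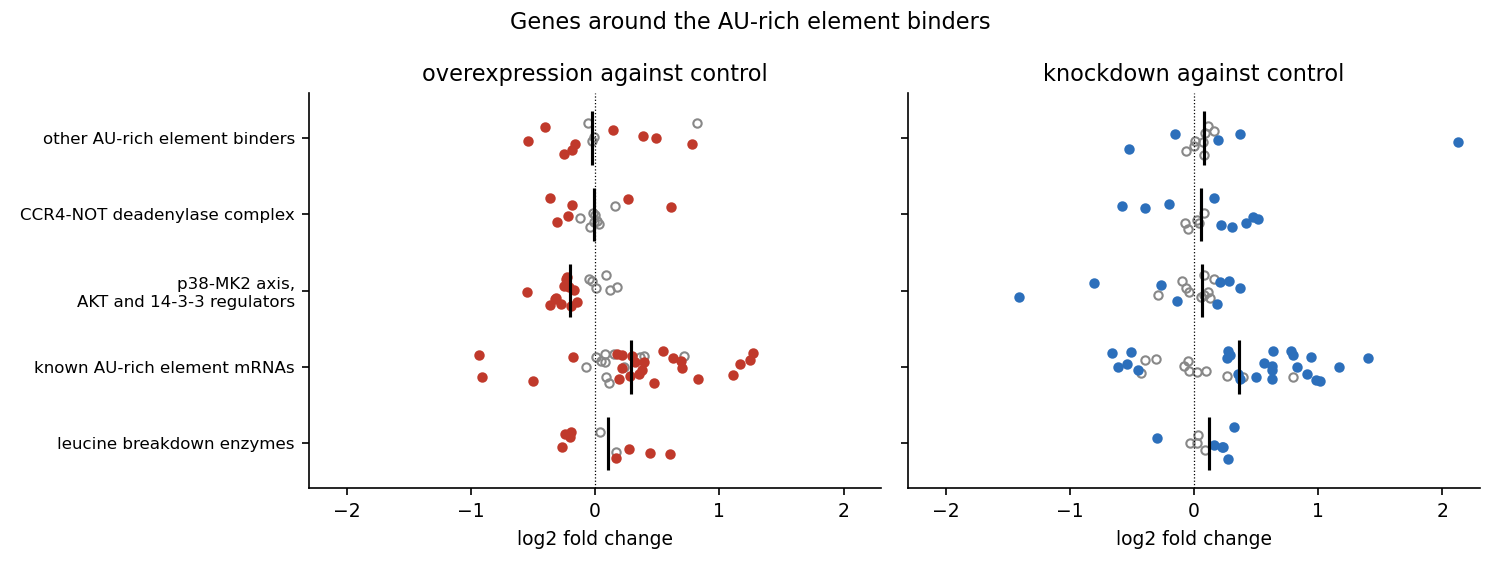
Log2 fold changes against control of genes around the AU-rich element binders, by list, with overexpression (left) and knockdown (right). Filled points had an adjusted p under 0.05, open points did not, and vertical bars mark list medians, which for the AU-rich mRNAs stand at 0.29 and 0.36.

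AUH also belongs to leucine breakdown, and 10 other enzymes of that pathway were counted. With overexpression 4 rose and 4 fell (median 0.10), and with knockdown 5 rose and 1 fell (median 0.12), or 3 rose by library totals. The shares over all genes were 25.2% higher and 24.1% lower with overexpression and 19.9% and 19.1% with knockdown. BCKDHA, a subunit of the branched-chain keto acid dehydrogenase, rose by 0.44 ± 0.07 with overexpression (adjusted p = 4.44e-05) and 0.24 ± 0.08 with knockdown (adjusted p = 0.0236). DBT, of the same complex, rose by 0.17 ± 0.05 (adjusted p = 0.0158) and 0.27 ± 0.06 (adjusted p = 0.00106). IVD, which acts shortly before AUH, fell with overexpression (-0.26 ± 0.06, adjusted p = 0.0012) and stood at 0.09 ± 0.07 with knockdown (adjusted p = 0.317).

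Genes that hold the nonamer UUAUUUAUU in the 3′ UTR were then counted. With overexpression 31.7% of the 1298 such genes were called higher and 19.4% lower, against 24.4% and 26.2% of the 12418 genes without it. Their median log2 fold change was 0.07, against -0.002 without the nonamer. With knockdown 19.0% were higher and 24.1% lower, against 20.9% and 19.4% without the nonamer, and the medians were -0.03 and 0.002. Genes with at least 2 nonamers, 316 in all, were higher in 38.3% and lower in 15.5% of cases with overexpression, and higher in 16.5% and lower in 27.2% with knockdown.

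Genes with the nonamer have longer 3′ UTRs, with a median of 3227 bases against 1539 bases for genes without it. All genes were split into 4 classes of 3′ UTR length with about as many genes each. From short to long these held 77, 197, 327 and 697 nonamer genes. With overexpression the higher share among nonamer genes was 35.1%, 30.5%, 29.1% and 32.9% in these classes, against 21.8%, 24.9%, 23.7% and 27.8% of genes without it. With knockdown the lower share was 15.6%, 22.3%, 21.4% and 26.8%, against 16.4%, 17.8%, 20.5% and 23.6%. The higher share with overexpression was thus larger for nonamer genes in each of the 4 length classes. With knockdown the shares lay closer together, and in the shortest class, with 77 nonamer genes, 31.2% of these were higher, against 19.4% of genes without the nonamer. No test was made of these shares.

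**Figure D5:**
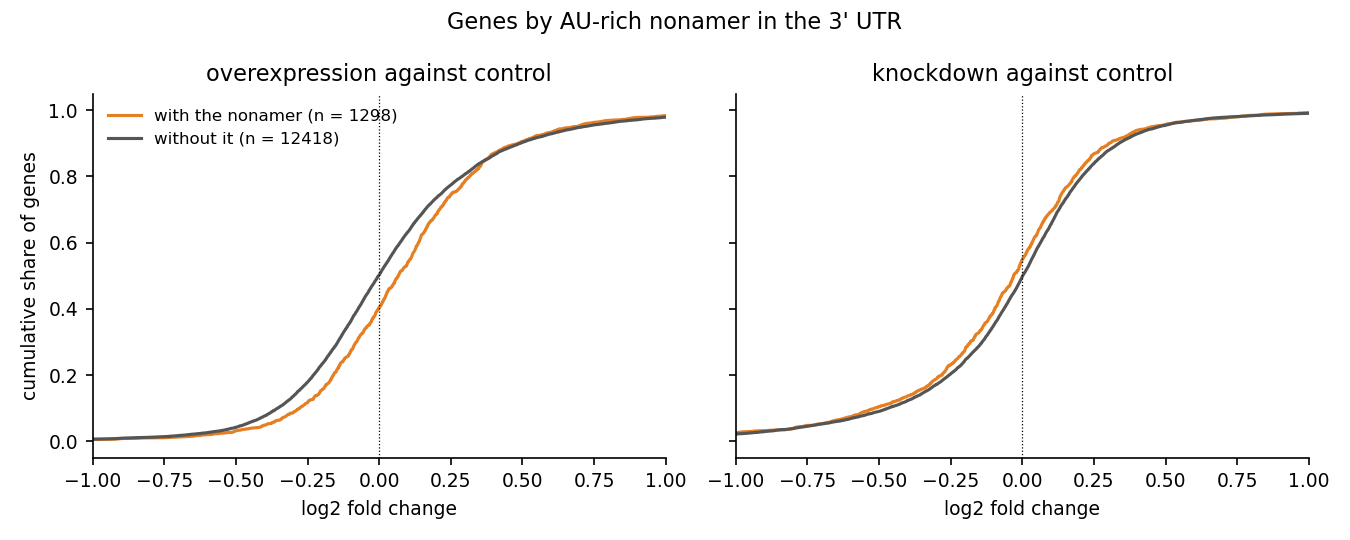
Cumulative share of genes by log2 fold change against control, shown from -1 to 1, for genes with the nonamer in the 3′ UTR (orange, n = 1298) and without it (grey, n = 12418). The orange curve lies to the right with overexpression, with a median of 0.07 against -0.002, and slightly to the left with knockdown, with a median of -0.03 against 0.002.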

How the data were processed

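RNA of HEK293F cells was sequenced in 8 libraries, prepared with a stranded TruSeq kit from 1 ug of total RNA per the labels' protocols. The deposited values are raw counts of reads per gene symbol, as the authors counted them. The genome build hg19 and the tools TopHat2 2.0.8, SAMtools 0.1.18, HTSeq 0.5.3p9, Trimmomatic 0.22, edgeR and CASAVA 1.8.2 are named, in no order, in the submitters' processing notes. How strand and multiply aligned reads were treated is not given in the sources used here. Libraries were grouped by their titles, and count columns were matched to titles.

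Counts were tested in R 4.3.3 with edgeR 4.0.16 (filterByExpr with a minimum count of 10, TMM, glmQLFit, two-sided quasi-likelihood F test) in a single fit of 8 libraries with a mean per group. Benjamini-Hochberg adjustment covered the 15254 genes that passed the filter, and those under 0.05 were called. The procedure was tested on simulated data. The members and lists were chosen with earlier results of these data known. Named are the members, MOV10, the 4 genes per list with the lowest adjusted p in either comparison with control, and the genes most like each member. One gene that this rule names is not reported here. Lists are described by counts and medians. Replicate pairs differed by a chi-square per gene of 1.85 to 7.81, so each library counted once. Symbols were matched to GENCODE 29 by name (13498) or through RefSeq synonyms (1027), and 729 were unmatched. Exon length is the union of annotated exons. Alternatives were DESeq2 1.42.0, limma 3.58.1 (voom), other scalings and filters, fits of only the groups compared, the replicate number as a block, and leaving out each library.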

Additional observations from a re-analysis of the deposited data

How the results depend on the processing

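Of 192 alternative fold changes of ZFP36, ZFP36L2, ELAVL1 and AUH, 175 kept their direction and side of the threshold. The differences of ZFP36L1 from control ranged from 0.92 to 0.97 with overexpression and 1.07 to 1.153 with knockdown when each library was left out, and those of ZFP36 from 0.63 to 0.79 and 0.62 to 0.80. Leaving out 1 library gave ranges of -0.0249 to 0.0478 for ZFP36L2 and 0.20 to 0.30 for AUH with overexpression. With knockdown they were 0.0853 to 0.18 for ZFP36L2, -0.0666 to 0.0019 for ELAVL1 and -0.15 to 0.0486 for AUH. Between treatments they were -0.0875 to 0.0936 for ZFP36, -0.21 to -0.13 for ZFP36L1, -0.17 to -0.0802 for ZFP36L2, -0.175 to -0.11 for ELAVL1 and 0.20 to 0.41 for AUH. Without the low-count filter ZFP36L2 stood at -0.00015 with overexpression. By library totals the direct differences were 0.081 for ZFP36, -0.0809 for ZFP36L1 and -0.0556 for ELAVL1. With only the compared libraries ELAVL1 stood at -0.14 between treatments and ZFP36L2 at 0.13 with knockdown. The cause was not tested.

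Numbers of genes called with knockdown ranged from 1577 to 3749 higher and 1466 to 3484 lower when each library was left out, the lowest without knockdown replicate 2. Same-numbered libraries of different groups had correlations of their deviations from -0.31 to 0.21, and other pairs from -0.235 to 0.311. Deviations from a mean of 2 or 3 libraries are tied to each other, so this cannot settle whether the numbers pair the libraries. With the replicate number as a block 3649 genes were higher and 3468 lower with overexpression, 2612 and 2557 with knockdown, and 4123 and 3953 between treatments, and no call of a member changed. Among genes with at least 2 nonamers, 38.3% were higher and 15.5% lower with overexpression, 16.5% and 27.2% with knockdown, and 42.7% and 18.4% between treatments. For the 7-base core UAUUUAU the last pair was 33.6% and 24.1%. Per kilobase of coding sequence the order of ZFP36L1 and ZFP36L2 turned in treated cells. AUH and ZFP36 rest on 206 to 937 reads per library, which limits their precision.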

Other observations

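The genes most like the other members over the 8 libraries, by the same measure, were PSME1 and BAG3 (r = 0.986 each) and ATXN2 (r = 0.985) for ZFP36. PSME1 encodes a proteasome activator subunit and BAG3 a co-chaperone, and their log2 differences were 0.30 ± 0.06 and 0.36 ± 0.06 with overexpression and 0.26 ± 0.07 and 0.33 ± 0.06 with knockdown (SE, against control). For ELAVL1 they were SMCR8 (r = 0.993), LCMT2 (r = 0.986) and SMAP1 (r = 0.984). For AUH they were RERG (r = 0.979), KIAA1704 (r = 0.977) and SELK (r = 0.963). For ZFP36L2, whose groups differed least, they were ZKSCAN5 (r = 0.963), NR2F1 (r = 0.937) and GTF2B (r = 0.935).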
